A study of Mus musculus with 8 samples.

Results

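Interferon-stimulated genes were read in RNA-seq libraries of the mouse pituitary neuro-intermediate lobe, as a set of 9 genes out of 48526 in the count table: Ifit1, Ifit2, Ifit3, Isg15, Irf7, Irf9, Stat2, Usp18 and Bst2. The set was chosen by the counts of Ifit1 and Ifit3, which had differed between ACreb3l2 and AXBP1 lobes, so that contrast is given here without a test. All 9 passed the filter on low counts (a mean of more than 20 normalized counts over the 8 libraries), which left 15580 genes for the tests. The lobes came from 4 groups of C57B6 mice, 3-month-old males per the study's methods, with 2 libraries per group and a pool of 5 lobes per library. WT lobes carried no transgene. ACreb3l2 and AXBP1 lobes carried a transgene for a dominant-negative form of Creb3l2 or of XBP1, both transcription factors of secretory cells, in which an acidic stretch takes the place of the DNA-binding part, and ACreb3l2/AXBP1 lobes carried both. The rat POMC promoter drove the transgenes, so they are directed to POMC cells, which in this lobe are the melanotropes, and the study's results are shown for 1 line of mice. Total counts ran from 28256086 to 37988912 reads per library. The labels call the cells melanotropes, but the dissected lobe also holds the posterior lobe.

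Interferons are secreted proteins that cells release on sensing foreign nucleic acid. Type I interferons bind the receptor chains Ifnar1 and Ifnar2, the kinases Jak1 and Tyk2 then pass the signal to Stat2, and Stat2 joins Irf9 in a complex that binds the interferon-stimulated response element in the promoters of its target genes. The targets include antiviral effectors such as the Ifit proteins, the ubiquitin-like protein Isg15, and Usp18, which takes Isg15 off its targets and damps the receptor.

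The reference promoters of the set are shown first because the response element is the sequence these genes are known to share. RefSeq windows of the GRCm38.p6 build were at hand for 8 of the 9 genes, all but Usp18. The core of the response element, TTTC followed after any 2 bases by TTTC, was searched on both strands in the 250 bases before the start. It was present in 5 of the 8 (Ifit1, Ifit3, Isg15, Stat2 and Bst2), against 2.98% of 32851 mouse promoter windows. The gamma-activated site, another interferon-responsive motif, TTC followed after any 3 bases by GAA, was present in 2 of the 8 (Ifit2 and Bst2), against 7.02% of the windows, and in Bst2 it overlaps a response element match. The bases outside annotated exons are given below for the 5 genes with a response element match, on the strand of the gene, with the matches in capitals (GAAA, 2 bases, GAAA where the match is on the opposite strand). A match is a description of the letters and not a shown binding site.
Ifit1, chr19:34640744-34640870, plus strand: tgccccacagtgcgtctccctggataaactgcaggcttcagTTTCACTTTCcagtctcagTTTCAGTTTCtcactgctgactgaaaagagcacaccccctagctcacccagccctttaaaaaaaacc
Ifit3, chr19:34583279-34583528, plus strand: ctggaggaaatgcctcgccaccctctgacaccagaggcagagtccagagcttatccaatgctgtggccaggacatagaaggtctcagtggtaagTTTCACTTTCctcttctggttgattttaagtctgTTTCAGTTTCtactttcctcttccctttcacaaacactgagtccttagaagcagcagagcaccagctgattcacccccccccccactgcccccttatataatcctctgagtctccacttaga
Isg15, chr4:156200819-156201068, minus strand: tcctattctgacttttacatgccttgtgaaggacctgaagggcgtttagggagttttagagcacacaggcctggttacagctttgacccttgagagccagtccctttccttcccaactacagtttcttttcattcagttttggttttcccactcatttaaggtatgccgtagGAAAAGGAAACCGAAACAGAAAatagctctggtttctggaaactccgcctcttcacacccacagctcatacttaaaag
Stat2, chr10:128270248-128270497, plus strand: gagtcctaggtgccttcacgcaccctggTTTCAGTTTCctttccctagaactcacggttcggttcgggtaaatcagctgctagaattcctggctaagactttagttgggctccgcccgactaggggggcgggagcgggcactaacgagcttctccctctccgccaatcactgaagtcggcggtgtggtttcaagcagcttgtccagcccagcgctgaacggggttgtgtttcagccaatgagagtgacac
Bst2, chr8:71537473-71537722, minus strand: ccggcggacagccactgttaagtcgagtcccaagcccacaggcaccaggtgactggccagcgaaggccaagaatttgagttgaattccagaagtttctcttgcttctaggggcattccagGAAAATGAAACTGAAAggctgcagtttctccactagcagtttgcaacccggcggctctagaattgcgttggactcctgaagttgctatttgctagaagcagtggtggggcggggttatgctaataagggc
Ifit1 and Ifit3 each hold a pair of separate matches, while the matches in Isg15 and in Bst2 overlap one another. The Ifit1 stretch is 127 bases long because annotated exons bound it on both sides. On its near side begins Ifit1 and on its far side the gene Ifit1bl2, read from the other strand, so both genes face the same pair of matches.

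The genes lie on 7 chromosomes of the mm10 build. Ifit2 (chr19:34550694-34576419), Ifit3 (chr19:34583531-34588731) and Ifit1 (chr19:34640871-34650009) form a cluster on chromosome 19, with the paralogs Ifit1bl1, Ifit3b and Ifit1bl2 between Ifit3 and Ifit1. Elsewhere lie Isg15 (chr4:156199424-156200818), Irf7 (chr7:141262706-141266481), Irf9 (chr14:55603571-55610030), Stat2 (chr10:128270576-128292849), Usp18 (chr6:121245906-121270917) and Bst2 (chr8:71534264-71537437), all annotated as protein-coding. Of the 50-base windows of the Ifit3 transcript, 51.2% also occur in Ifit3b, so the split of reads between these 2 genes is uncertain. For Ifit1 the share is 7.14%, nearly all of it with Ifit1bl2. Exons of Irf7 overlap those of Phrf1 over 1.19% of their length, those of Irf9 overlap Rnf31 over 2.28%, and those of Usp18 overlap the noncoding Gm44148 over 4.44%. Phrf1 and Gm44148 lie on the opposite strand, and whether the counting used the strand is not given in the sources used here. Rnf31 lies on the same strand as Irf9, so the strand would not part these. A few reads of these neighbours therefore cannot be told apart.

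Marker genes of melanotropes were high in every library. The summed level of 9 melanotrope markers was 119126 to 175790 CPM (counts scaled to library size) in WT, 118964 to 131223 in ACreb3l2, 109773 to 127866 in AXBP1 and 71503 to 97978 in ACreb3l2/AXBP1. Other cells of the lobe were present as well. The sum of 14 macrophage and microglia markers was 544 to 591 CPM in WT, 545 to 757 in ACreb3l2, 543 to 584 in AXBP1 and 522 to 617 in ACreb3l2/AXBP1. The sum of 10 endothelial markers was 181 to 228, 153 to 270.1, 245 to 312 and 262 to 325 CPM in the same order of groups. That of 10 pituicyte and astrocyte markers was 908 to 1160, 1170.1 to 1337, 1124 to 1293 and 1189.7 to 1443 CPM, so both groups with ACreb3l2 lay above WT. That of 10 lymphocyte markers, of which 4 passed the filter on low counts, was 4.34 to 4.87, 6.01 to 6.09, 4.34 to 5.85 and 5.14 to 7.92 CPM, again above WT in both groups with ACreb3l2. Markers listed for plasmacytoid dendritic cells, which are known for releasing type I interferon, summed to 157 to 163, 162 to 185, 179 to 186 and 188 to 206 CPM (6 markers, 4 past the filter). They were Siglech, Ccr9, Tcf4, Spib, Ly6d and Klk1. Their sum was not split by gene, so it does not show that such cells were present or rose. The sum of 10 fibroblast and pericyte markers was 814 to 1057, 785 to 1039, 1064 to 1226 and 1060.1 to 1241 CPM. That of 7 anterior lobe markers was 4796 to 7114, 3859 to 5069.5, 2474 to 2597 and 3285 to 6378 CPM, lowest in both AXBP1 libraries. None of these markers was at 0 in all libraries. In bulk tissue fewer cells of a type and less RNA per cell cannot be told apart, and which cells of the lobe the interferon-stimulated transcripts came from was not tested.

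Levels of the 9 genes can be ranked only per transcript length, as FPKM, the fragment count scaled by transcript length and library size. In WT the mean FPKM was 20.7 ± 4.99 (SD, n = 2) for Bst2, 15.3 ± 1.91 for Irf9, 12.8 ± 0.779 for Ifit3 and 5.51 ± 0.150 for Irf7. It was 4.19 ± 0.317 for Isg15, 3.95 ± 0.947 for Usp18, 3.87 ± 0.868 for Ifit1, 3.18 ± 1.12 for Ifit2 and 3.13 ± 0.286 for Stat2. The first 4 did not overlap their neighbours in this order over the 2 WT libraries, whereas each neighbour from Isg15 down to Stat2 overlapped the next. All 9 genes were thus detected in WT lobes.

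**Figure D1:**
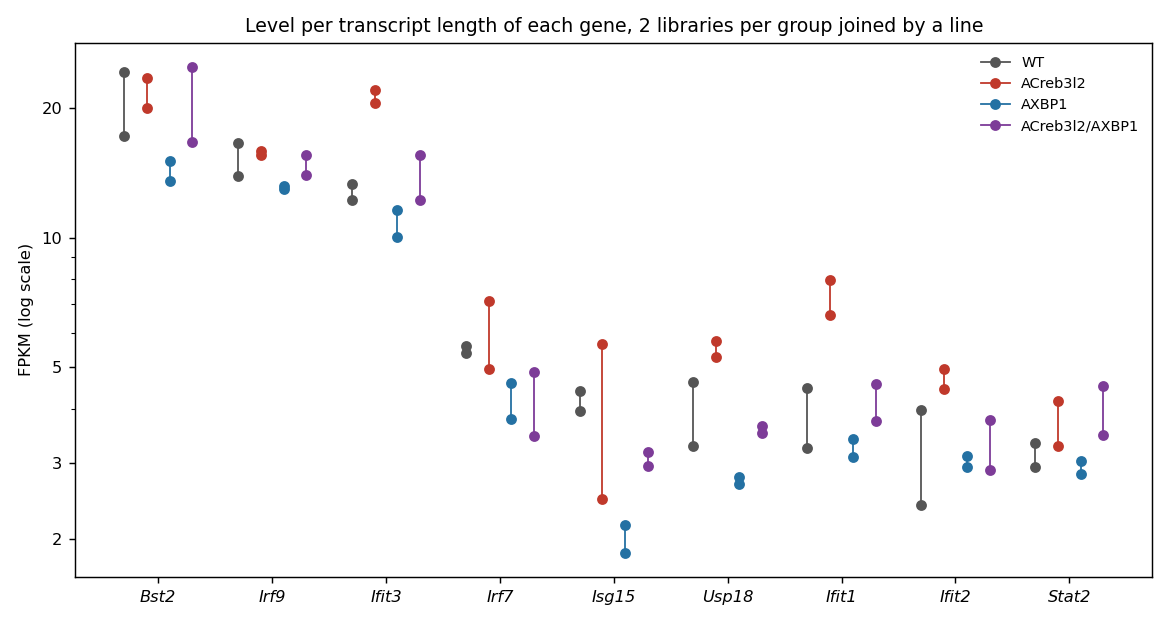
FPKM (log scale) of the 9 interferon-stimulated genes, ordered by their mean in WT, with 2 points per group joined by a line. Ifit3 and Ifit1 in ACreb3l2 lie above the points of every other group, and Bst2, Irf9 and Ifit3 lie above the other 6 genes.

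Normalized counts (counts scaled to a common library size with TMM factors) are given for each library in the order replicate 1, replicate 2, beginning with the factors that carry the interferon signal to the nucleus. Stat2, the signal transducer that is specific to type I and III interferons, stood at 566 and 530.1 normalized counts with no transgene, 691.5 and 585 with ACreb3l2, 597 and 544 with AXBP1, and 639 and 757 with both transgenes. Both ACreb3l2 and both ACreb3l2/AXBP1 libraries lay above both WT libraries, while AXBP1 overlapped WT. Irf9, the DNA-binding partner of Stat2, stood at 1480.3 and 1288 normalized counts with no transgene, 1385.5 and 1415 with ACreb3l2, 1333 and 1349 with AXBP1, and 1356 and 1373 with both transgenes. It varied least of the 9 genes, since the highest library held 1.149 times the lowest and both extremes were WT. Irf7, an interferon regulatory factor that is itself induced by interferon and amplifies its production, stood at 386 and 394 normalized counts with no transgene, 461 and 346 with ACreb3l2, 288 and 364 with AXBP1, and 360 and 217.5 with both transgenes. The ACreb3l2 libraries fell on either side of WT, and the libraries of both groups with AXBP1 lay below WT.

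The Ifit genes encode proteins with tetratricopeptide repeats that bind viral RNA or one another. Ifit1 stood at 447 and 334 normalized counts with no transgene, 767 and 666 with ACreb3l2, 385.5 and 345 with AXBP1, and 404.5 and 437 with both transgenes. The ACreb3l2 libraries stood above all the other 6, which fell within the range of the 2 WT libraries. Ifit2 stood at 549 and 333 normalized counts with no transgene, 647 and 596 with ACreb3l2, 509 and 435 with AXBP1, and 445 and 491 with both transgenes. Here too the ACreb3l2 libraries were the highest, but the gap to WT replicate 1 was smaller than the gap between the WT libraries. Ifit3 stood at 852 and 792 normalized counts with no transgene, 1276 and 1422 with ACreb3l2, 843 and 717 with AXBP1, and 842 and 985 with both transgenes. Both ACreb3l2 libraries were above every other library. Because of the reads that Ifit3 can share with Ifit3b, the sum of both genes was also taken. It came to 1281 and 1120.1 normalized counts with no transgene, 1838 and 1973 with ACreb3l2, 1204 and 1035 with AXBP1, and 1223 and 1407 with both transgenes, with the ACreb3l2 libraries again above all others.

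Isg15, the ubiquitin-like modifier, stood at 92.3 and 110.2 normalized counts with no transgene, 59.3 and 136 with ACreb3l2, 57.3 and 48.5 with AXBP1, and 78.1 and 73.7 with both transgenes. The 2 ACreb3l2 libraries enclosed every WT and ACreb3l2/AXBP1 library, so no direction can be read for them, and both AXBP1 libraries were below all others. Usp18, the protease that removes Isg15, stood at 286.5 and 216 normalized counts with no transgene, 357 and 342 with ACreb3l2, 204 and 186 with AXBP1, and 242 and 218 with both transgenes. Its ACreb3l2 libraries were the highest of the 8 and its AXBP1 libraries the lowest. Bst2 (tetherin), a membrane protein that holds budding virus at the cell surface, stood at 438 and 641 normalized counts with no transgene, 580.5 and 514 with ACreb3l2, 443 and 386 with AXBP1, and 680.4 and 419 with both transgenes. The WT libraries of Bst2 overlapped every other group.

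**Figure D2:**
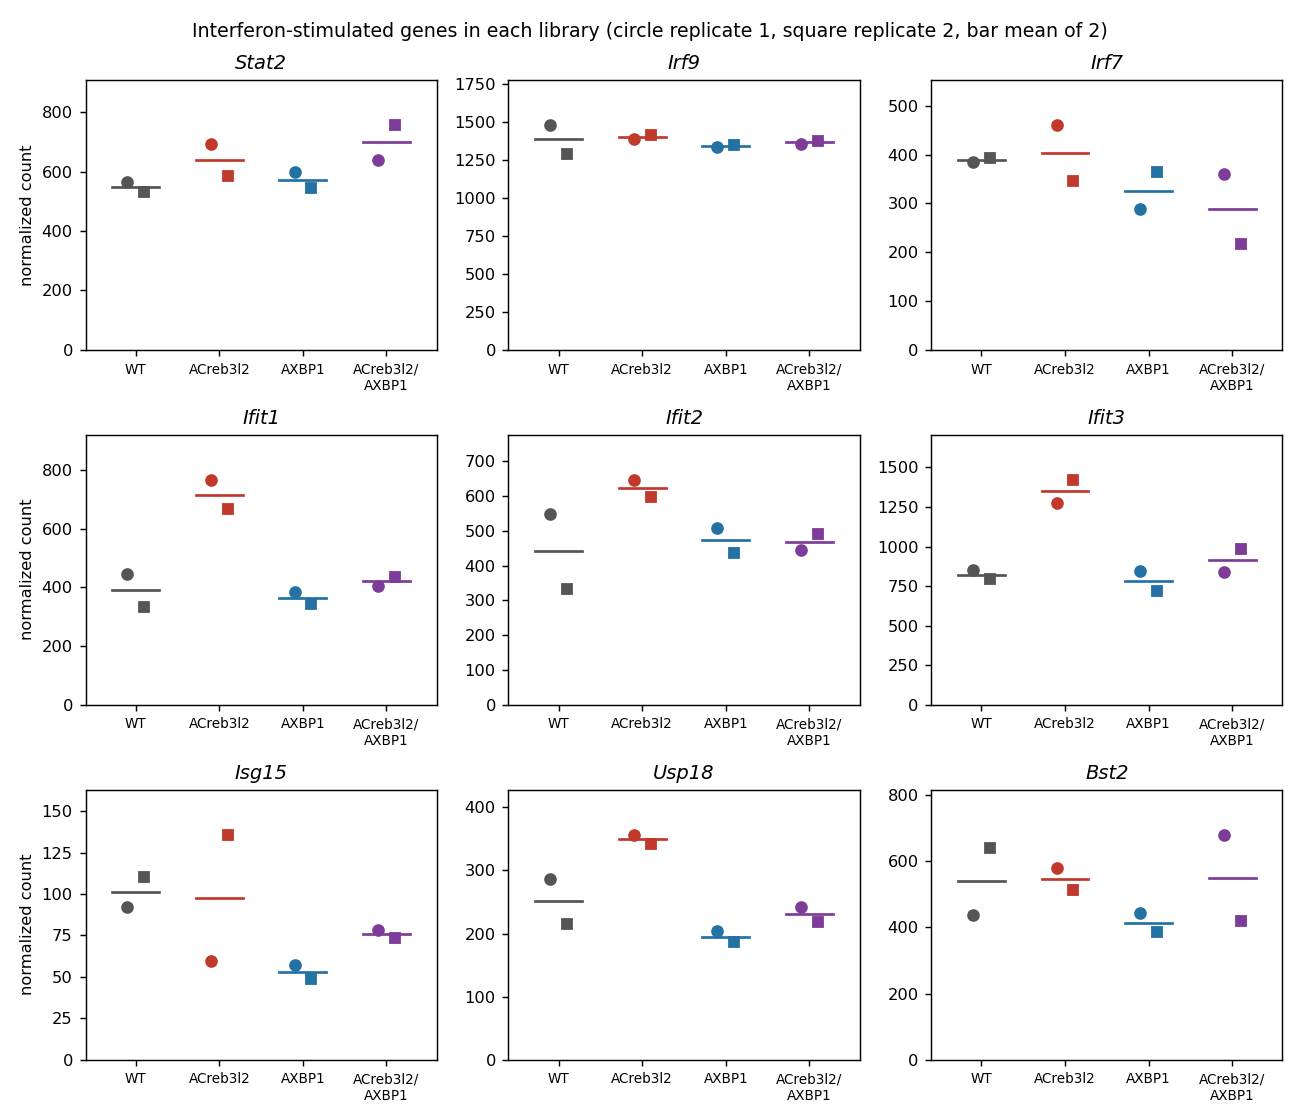
Normalized count of each of the 9 genes (vertical axes from 0) in the 4 groups, with a circle for replicate 1, a square for replicate 2 and a bar for their mean. Ifit1, Ifit3 and Usp18 stand above all other libraries in both ACreb3l2 libraries (Ifit1 at 767 and 666), while Irf9 is nearly level across the 8 libraries.

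ACreb3l2/AXBP1 against WT is the one comparison whose groups hold no library of the contrast behind the choice of the set. The spread in its test was still estimated over all 8 libraries, those of that contrast included. Of the 9 genes none passed an adjusted p of 0.05 in edgeR's quasi-likelihood test (0 of 9, against 10.1% of all 15580 genes tested). DESeq2 and limma on FPKM also called 0, as did edgeR with only the compared groups in the fit (4.2% of all genes). At an unadjusted edgeR p under 0.05 stood 1 gene, against 29.7% of all genes. That gene was Stat2, with a log2 change of 0.35 (SE 0.126, 95% interval 0.07 to 0.63, adjusted p = 0.101) and both transgenic libraries above both WT libraries. Ifit1 changed by 0.11 on the log2 scale (interval -0.23 to 0.44), Ifit3 by 0.15 (-0.11 to 0.42) and Usp18 by -0.13 (-0.49 to 0.23). Irf7 had a log2 change of -0.44 (interval -0.98 to 0.11, adjusted p = 0.256), and without ACreb3l2/AXBP1 replicate 1 it was -0.84 with an adjusted p of 0.0404 (1 of 9 genes called, against 13.4% of all genes), and without the filter on low counts it was -0.44 with an adjusted p of 0.0456 (10.9% of 29547 genes called). A group from which a library is left out holds 1 library, whose spread is then taken to be that of the other groups, here and in the values without a library given later. The median log2 change of the set was 0.03, beside 0.01 for all genes tested, with 5 genes above 0 and 4 below. With library size alone as the scaling, which moves the median of all genes in this comparison to 0.17, Irf9 and Usp18 also lie above 0. Libraries did not overlap for 1 gene that was higher (29.6% of all genes) and for 2 that were lower (28.7%), Isg15 and Irf7.

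ACreb3l2 against WT shares the ACreb3l2 libraries with the contrast that chose the set, so its tests are not independent of the choice. Ifit1 and Ifit3 were higher in ACreb3l2 lobes, by 1.83-fold and 1.64-fold. The log2 change was 0.88 (SE 0.149, 95% interval 0.54 to 1.21) for Ifit1 with an edgeR adjusted p of 0.0137, and 0.71 (SE 0.119, interval 0.45 to 0.98) for Ifit3 with an adjusted p of 0.0122. These 2 of 9 genes called are the 2 whose counts chose the set, so nothing is read from that number beside the 3.04% of all genes called in either direction and the 0.539% called higher. Usp18 had a log2 change of 0.47 (interval 0.12 to 0.83, adjusted p = 0.165), Ifit2 one of 0.49 (0.03 to 0.96, adjusted p = 0.269) and Stat2 one of 0.22 (-0.06 to 0.50, adjusted p = 0.420). With these, 5 of 9 genes had both ACreb3l2 libraries above both WT libraries, as did 22.3% of all genes. The other 4 genes, Irf7, Irf9, Isg15 and Bst2, had log2 changes between -0.07 and 0.06, and that of Isg15 (-0.07) turned to 0.01 with library size alone. Macrophage and microglia markers summed to 545 and 757 CPM in the 2 ACreb3l2 libraries beside 544 to 591 in WT. In the same libraries the pituicyte and astrocyte markers (1170.1 to 1337 CPM, beside 908 to 1160) and the sparse lymphocyte markers (6.01 to 6.09 CPM, beside 4.34 to 4.87) summed to more than in either WT library. The part of any of these cells in the differences was not tested.

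Both calls in ACreb3l2 against WT hung on single libraries. Without WT replicate 2 neither gene was called (0.68, adjusted p = 0.0804 for Ifit1, and 0.66, adjusted p = 0.0875 for Ifit3). Without ACreb3l2 replicate 1 the Ifit1 call was lost (0.77, adjusted p = 0.105), and without ACreb3l2 replicate 2 the Ifit3 call was lost (0.64, adjusted p = 0.103). Limma on log2(FPKM + 0.1) gave log2 changes of 0.91 for Ifit1 (adjusted p = 0.0851) and 0.74 for Ifit3 (adjusted p = 0.0526). Ifit2 gained a call in 2 settings, without WT replicate 1 (0.90, adjusted p = 0.0141, with 3.97% of all genes called) and without the filter on low counts (0.50, adjusted p = 0.0119, with 4.92% called), while without WT replicate 2 its log2 change was 0.18 (adjusted p = 0.730). For Ifit1 and Ifit3 the direction was the same under all 17 alternatives, where the log2 change ran from 0.68 to 1.10 for Ifit1 and from 0.64 to 0.79 for Ifit3.

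AXBP1 against WT shares its AXBP1 libraries with the choosing contrast. In edgeR no gene of the set was called, nor was any of all 15580 genes (0%), with DESeq2 and limma also at 0 of 9. At an unadjusted p under 0.05 stood 2 of the 9 genes, against 9.97% of all genes. They were Isg15 with a log2 change of -0.93 (SE 0.353, interval -1.72 to -0.14, adjusted p = 0.492) and Usp18 with -0.37 (interval -0.74 to -0.000755, adjusted p = 0.5003). Both, and Irf7 at -0.26, had AXBP1 libraries below both WT libraries (3 of 9 genes, as in 23.8% of all genes). Ifit1 had a log2 change of -0.10 (interval -0.44 to 0.24) and Ifit3 one of -0.07 (-0.34 to 0.19), and for both the AXBP1 libraries overlapped WT. Without the filter on low counts Isg15 was called (-0.94, adjusted p = 0.0214, with 2.13% of 29547 genes called). The median over the 9 genes was -0.10, beside 0.00 for all genes. In the same comparison 6 of 7 anterior lobe markers lay below 0 (median -0.51) and all 10 endothelial (median 0.44) and all 10 fibroblast and pericyte markers (median 0.28) lay above 0, with none called, and their part in these values was not tested.

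**Figure D3:**
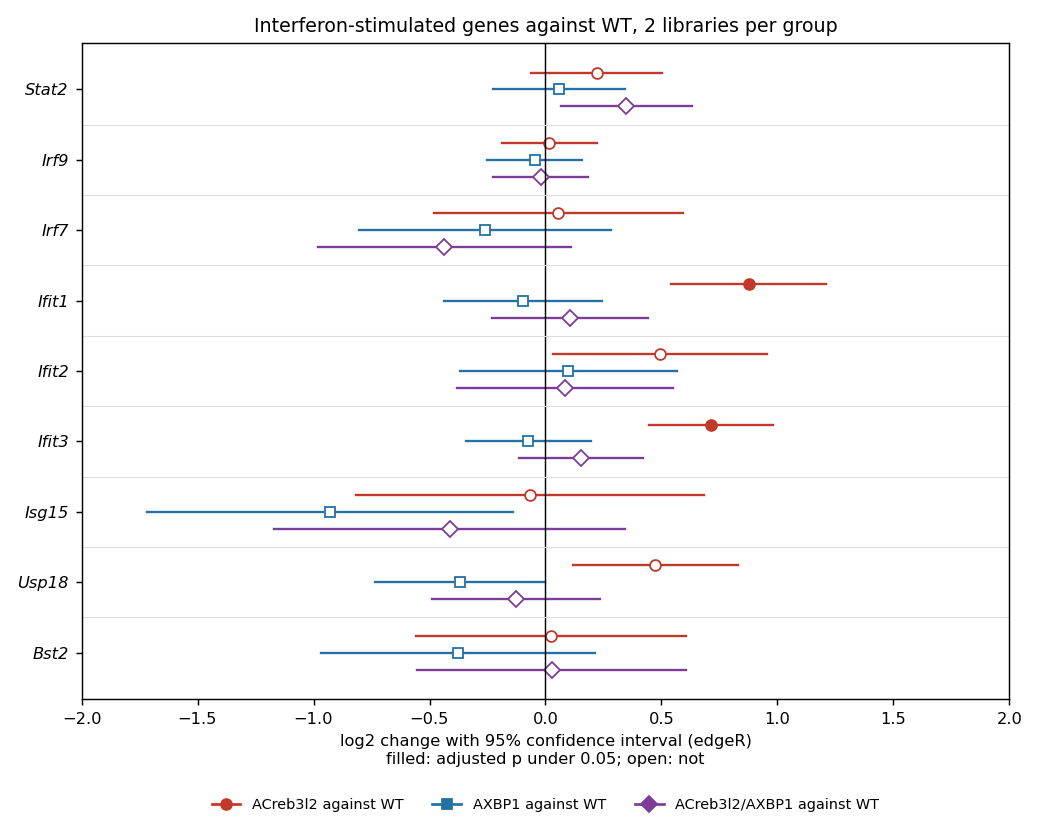
Log2 change against WT of each gene in ACreb3l2 (circles), AXBP1 (squares) and ACreb3l2/AXBP1 (diamonds) with its 95% confidence interval, filled where the adjusted p is under 0.05. Filled points appear only for Ifit1 (0.88) and Ifit3 (0.71) in ACreb3l2, and the 3 comparisons share their WT libraries.

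The contrast that chose the set, ACreb3l2 against AXBP1, is described without a test. The mean normalized count was 717 in ACreb3l2 and 365 in AXBP1 for Ifit1 (log2 difference 0.97), 1349 and 780.1 for Ifit3 (0.79), and 349 and 195 for Usp18 (0.84). Isg15 differed by 0.86 at low counts (97.6 and 52.9), and the differences were smaller for Ifit2 (0.40), Bst2 (0.40), Irf7 (0.32), Stat2 (0.16) and Irf9 (0.06). All 9 genes had the higher mean in ACreb3l2, and for 7 of them the libraries did not overlap, which is the case for 21.5% of all genes in that direction. Nothing is read from these counts, since the rule used this contrast.

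Adding AXBP1 to ACreb3l2 (ACreb3l2/AXBP1 against ACreb3l2) gave lower counts of Ifit1, Ifit2 and Ifit3 in both double-transgenic libraries than in both ACreb3l2 libraries, but no gene of the set passed the edgeR test. The log2 change was -0.77 for Ifit1 (SE 0.148, 95% interval -1.10 to -0.44, adjusted p = 0.559), -0.56 for Ifit3 (SE 0.119, interval -0.83 to -0.30, adjusted p = 0.572) and -0.60 for Usp18 (SE 0.160, interval -0.96 to -0.24, adjusted p = 0.688). These were the 3 of 9 genes at an unadjusted p under 0.05 (7.14% of all genes), none of all 15580 genes (0%) was called in this comparison, and limma called 0 of the 9. DESeq2 called 2 of the 9, Ifit1 and Ifit3, which are the 2 that chose the set, and 0.231% of all genes, and nothing is read from that number. Without the filter on low counts edgeR called all 3, against 1.74% of 29547 genes. In 5 of 9 genes both double-transgenic libraries lay below both ACreb3l2 libraries, as in 18.6% of all genes. This comparison reuses the ACreb3l2 libraries on which the set was picked, so part of the difference may be carried by that choice and cannot be told apart from it.

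Adding ACreb3l2 to AXBP1 (ACreb3l2/AXBP1 against AXBP1) gave log2 changes from -0.17 to 0.52 over the set. In edgeR 0 of 9 genes were called, against 0.623% of all genes, and DESeq2 and limma also called 0. At an unadjusted edgeR p under 0.05 stood 1 gene, Stat2, beside 11.1% of all genes (log2 change 0.29, interval 0.01 to 0.57, adjusted p = 0.426). Libraries did not overlap for 5 of 9 genes, all higher (22.7% of all genes). Ifit1 had a log2 change of 0.20 (interval -0.14 to 0.54) and Isg15 one of 0.52 (-0.28 to 1.31).

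The interaction asks whether the double-transgenic change departs from the sum of both single changes. It was -0.67 on the log2 scale for Ifit1 (SE 0.213, 95% interval -1.15 to -0.20) and -0.49 for Ifit3 (SE 0.169, interval -0.86 to -0.11). Both had an adjusted p of 0.9997 in edgeR. No gene of the set or of all genes was called (0%), 2 of 9 stood at an unadjusted p under 0.05 (2.48% of all genes), and DESeq2 and limma called 0 of 9. The term uses all libraries of the choosing contrast, so it is not independent of the choice of the set.

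Other genes of the pathway were read from 8 lists with 126 genes, of which 113 passed the filter. The 9 ligand genes on the lists were close to absent at this depth, and other genes of the Ifna family were not looked up. Of 9 interferon genes 7 had no read in any library (Ifnb1, Ifna1, Ifna4, Ifne, Ifnk, Ifnl2 and Ifnl3), Ifna2 had 1 read in 1 library and Ifng had 1 read in each of 4 libraries. A count of 0 allows up to 3 reads, or 0.106 CPM in the shallowest library, which covers counting error only. The receptor chains Ifnar1 and Ifnar2, the kinases Jak1 and Tyk2 and the sensor-linked factor Irf3 had log2 changes between -0.23 and 0.23 in all 3 comparisons with WT, with edgeR adjusted p from 0.115 to 0.979.

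Of the Ifit paralogs, Ifit3b is the one nearest to Ifit3 in sequence. It stood at 429 and 328 normalized counts with no transgene, 562 and 551 with ACreb3l2, 361 and 317.5 with AXBP1, and 382 and 422 with both transgenes, and its log2 change in ACreb3l2 against WT was 0.55 (SE 0.143, edgeR adjusted p = 0.0765). Ifit1bl1 was low, between 8.7 and 31.2 normalized counts per library, and Ifit1bl2, between 8.9 and 21.8, did not pass the filter. Every transgenic library of Ifit1bl1 lay above both of its WT libraries, though edgeR called it in no group. On the log2 scale edgeR put Ifit1bl1 above WT by 1.14 with ACreb3l2 (SE 0.391, adjusted p = 0.170). With AXBP1 the difference was 1.12 (SE 0.396, adjusted p = 0.484), and with both transgenes 0.65 (SE 0.406, adjusted p = 0.310). Unlike Ifit3b, Ifit1bl1 was thus not higher in ACreb3l2 alone. Both ACreb3l2 libraries of Ifit3b lay above all other libraries of that gene.

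The pathway lists were chosen with earlier results of these data known, so the counts of list genes called are a description of these libraries. Over the pathway lists 13 of 113 genes were called by edgeR in ACreb3l2/AXBP1 against WT (11.5%, near the 10.1% of all genes), 12 of them higher (against 3.06% of all genes) and 1 lower. These included 2 of 15 genes of nucleic acid sensing and 10 of 62 interferon-induced effectors, so most genes of either list did not pass. The RNA sensors Ifih1 (MDA5, log2 change 0.43, SE 0.104, adjusted p = 0.0322) and Dhx58 (LGP2, 0.57, SE 0.156, adjusted p = 0.0457) rose. So did Parp9 (0.48, SE 0.0911, adjusted p = 0.0133) and Dtx3l (0.51, SE 0.0852, adjusted p = 0.00819), which form a complex of an ADP-ribosyltransferase and a ubiquitin ligase, and Parp14 (0.56, adjusted p = 0.0148), a related ADP-ribosyltransferase. Ddx60, a helicase, had the largest rise of the 12 (0.77, SE 0.139, adjusted p = 0.0107), followed by Herc6, the mouse ligase that attaches Isg15 (0.69, adjusted p = 0.0283). The GTPases Gbp7 (0.55) and Irgm2 (0.50), the antibody receptor and ubiquitin ligase Trim21 (0.49), the checkpoint ligand Cd274 (PD-L1, 0.47) and the nucleotide kinase Cmpk2 (0.34) rose with adjusted p from 0.0166 to 0.0446. Isg20, an exonuclease, fell by 0.84 on the log2 scale (SE 0.144, adjusted p = 0.00905).

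ACreb3l2 against WT reuses the ACreb3l2 libraries of the choosing contrast, so its list counts are not independent of the choice of the set. In it 9 of 113 list genes were called, all higher (7.96%, against 3.04% of all genes in either direction and 0.539% higher). They were Slfn8 (log2 change 0.82, adjusted p = 0.0349), which belongs to the schlafen family, Dhx58 (0.81, adjusted p = 0.0224), Parp14 (0.64), Cd274 (0.59), Parp9 (0.56), Irgm2 (0.53), Trim21 (0.43), Dtx3l (0.43) and the large ubiquitin ligase Rnf213 (0.39), with adjusted p from 0.0109 to 0.0488. In AXBP1 against WT 0 of 113 were called by edgeR, 10 stood at an unadjusted p under 0.05 (beside 9.97% of all genes), and DESeq2 and limma called 0. The median log2 change over the tested list genes was 0.14 in ACreb3l2/AXBP1, 0.17 in ACreb3l2 and -0.03 in AXBP1, all against the same WT libraries, beside 0.01, 0.01 and 0.00 for all genes. In the double-transgenic lobes all 9 melanotrope markers had log2 changes below 0 against WT (median -0.57), and 2 of them fell (Tbx19 by a log2 change of -0.88, adjusted p = 0.0245, and Scg2 by -0.57, adjusted p = 0.0253). All 10 endothelial markers had both double-transgenic libraries above both WT libraries (median log2 change 0.57), as did 29.6% of all genes, with none called. Of 10 pituicyte and astrocyte markers 9 were above 0 (median 0.31) and 1, the astroglial channel Aqp4, was called (0.51, adjusted p = 0.0464), beside 10.1% of all genes. All 4 tested lymphocyte markers were above 0 (median 0.60), with none called. Of the 4 tested plasmacytoid dendritic cell markers 3 had both double-transgenic libraries above both WT libraries (median 0.33), and 9 of 10 fibroblast and pericyte markers were above 0 (median 0.31). In ACreb3l2 against WT 12 of 14 macrophage and microglia markers (median 0.16), 9 of 10 pituicyte and astrocyte markers (median 0.31) and all 4 tested lymphocyte markers (median 0.38) were above 0, with none called. The part of cell make-up in the pathway calls of either comparison was not tested.

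**Figure D4:**
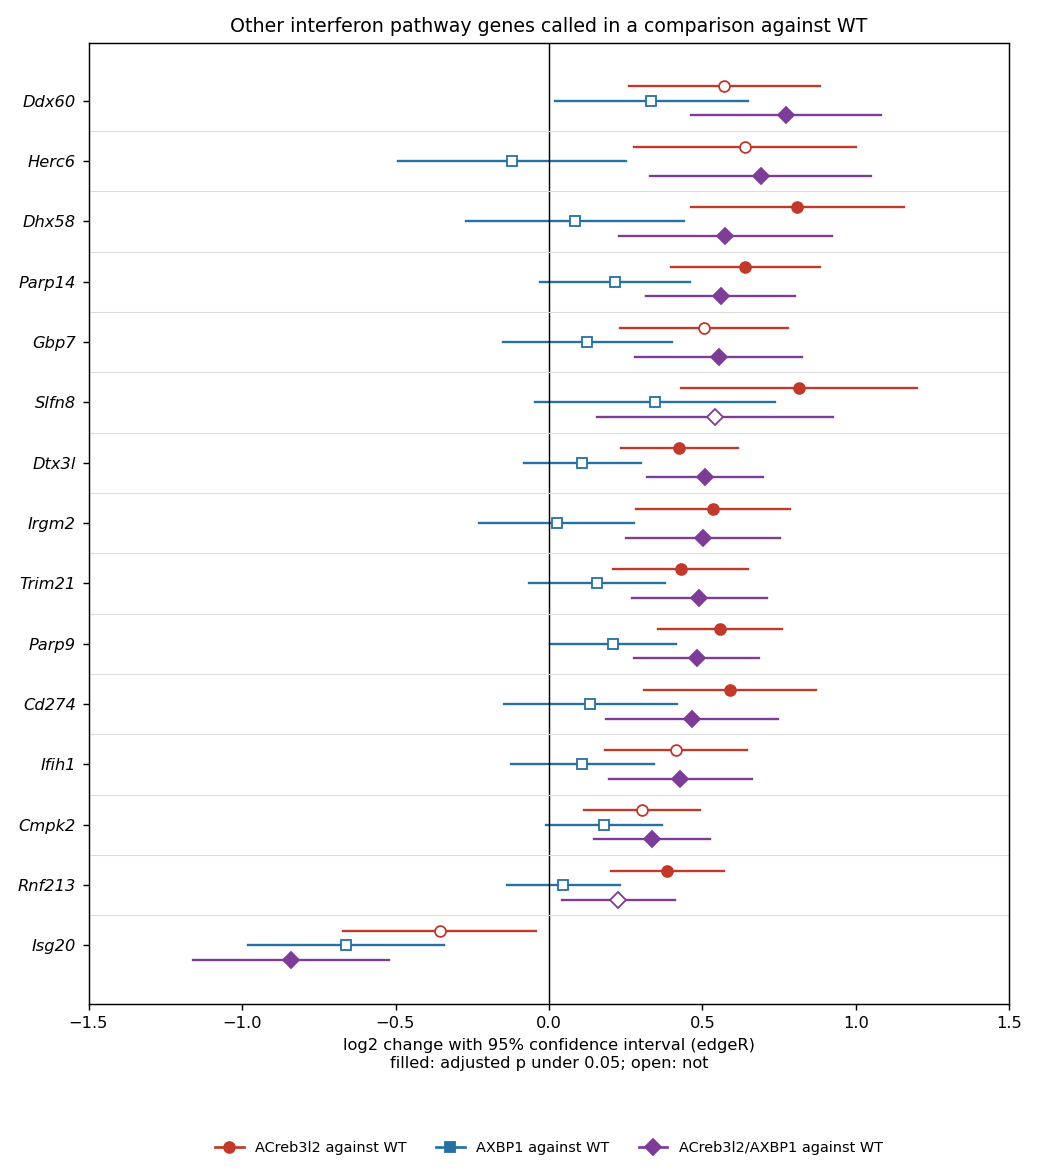
Log2 change against WT with its 95% confidence interval for the 15 list genes called in at least 1 comparison, ordered by ACreb3l2/AXBP1 (diamonds), with filled points for an adjusted p under 0.05. All but Isg20 lie above 0 in ACreb3l2 (circles) and ACreb3l2/AXBP1, and no AXBP1 point (squares) is filled.

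These counts turned on a few libraries, and the share of all genes called, given in parentheses, fell with them. In ACreb3l2/AXBP1 against WT the number of list genes called was 1 without WT replicate 2 (2.28%) and 0 without ACreb3l2/AXBP1 replicate 2 (1.4%), and limma on FPKM called 1 (5.71%). In ACreb3l2 against WT it was 0 without WT replicate 2 (1.01%), 1 without ACreb3l2 replicate 1 (1.25%) and 2 without ACreb3l2 replicate 2 (0.982%). It was 2 without AXBP1 replicate 1 (1.8%), 3 without AXBP1 replicate 2 (1.78%) and 4 with the replicate number as a block (2.06%). Each of the 15 genes kept its direction in both comparisons under all 17 alternatives.

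Finally, genes were sought whose pattern over the 8 libraries was most like that of the set, measured by Pearson's r with the mean of the 9 genes after centring each on its own mean (log2 CPM). That mean was 0.28 and 0.30 in ACreb3l2, 0.04 and -0.08 in WT, 0.00 and -0.10 in ACreb3l2/AXBP1, and -0.17 and -0.28 in AXBP1. Of the set, Usp18 followed the mean of the other members most closely (r = 0.97), then Ifit1 (0.86) and Ifit3 (0.85), while Stat2 (0.17), Irf7 (0.26), Isg15 (0.29) and Bst2 (0.31) did so least. The 10 tested genes outside the set with the highest r were Ormdl2 (0.98), Myd88 (0.95), Fbxo6 (0.94), Zcchc18 (0.94), Ube2l6 (0.94), Smad1 (0.93), Ifit3b (0.93), Tesc (0.93), Il7 (0.92) and Cntn5 (0.92). Myd88, an adaptor of Toll-like receptors, Ube2l6, the conjugating enzyme for Isg15, and Ifit3b were on the pathway lists and the other 7 were not. The 8 points share groups, pools and scaling, and these were the highest of 15580 genes, so the values of r are a description of these libraries.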

How the data were processed

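RNA from pools of 5 neuro-intermediate lobes was depleted of ribosomal RNA per the labels (the study's methods name a stranded mRNA kit) and sequenced as 50-base paired-end reads. The authors trimmed reads with Trimmomatic v0.22, aligned them to mm10 with Tophat v2.0.8 and counted them per gene with HTSeq v0.5.4. The deposited files hold raw counts per Ensembl gene and FPKM values computed by the authors per gene. Multi-mapping and strand settings are not given in the sources used here.

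Counts were tested with edgeR 4.0.16 (R 4.3.3; TMM factors, robust quasi-likelihood F test, 1 mean per group over all 8 libraries, Benjamini-Hochberg adjustment over 15580 genes with a mean normalized count above 20, called at an adjusted p under 0.05). Intervals are 95% and the common biological coefficient of variation was 0.107. DESeq2 1.42.0 and limma 3.58.1 on log2(FPKM + 0.1), which gives changes on that scale, were alternatives, as were other scalings, filters, a replicate block and leaving out each library. The procedure was tested on simulated data. Total counts of 28256086 to 37988912 reads per library set the precision, and with 2 pools per group p-values measure the spread between these pools.

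The members and the gene lists were chosen with earlier results of these data known. Named were all 9 members, fixed upstream genes and Ifit paralogs, list genes called against WT (at most 15 per comparison, by size) and the 10 genes most like the members. Of 126 list genes all matched the files. One of the fixed upstream genes is not reported here. Replicates of a group differed by more than counting noise (chi-square per degree of freedom 10.7 to 48.5). Deviations of same-numbered replicates correlated at -0.197 to 0.0887 between groups, so the numbers were not taken as pairs. Promoters are RefSeq windows of GRCm38.p6, and exon positions and overlaps come from GENCODE M21 (GRCm38/mm10).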

Additional observations from a re-analysis of the deposited data

How the results depend on the processing

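Over the 27 pairs of member and comparison with WT, 415 of 459 log2 changes kept direction and call under 17 alternatives, 9 lost and 5 gained a call, and 30 changed sign, none of them called (lowest adjusted p 0.296). The cause of the changes below was not tested. Shares of all genes called in a setting stand in parentheses. Members called against WT were 1 (Irf7) in ACreb3l2/AXBP1 without a filter on low counts (10.9%; 0 to 1 leaving out 1 library). In ACreb3l2 they were 0 with limma on log2(FPKM + 0.1), filtered (1.42%) or not (0.443%), and 1 with limma on log2(FPKM + 1) (1.44%; 0 to 3 leaving out 1 library), and in AXBP1 they were 1 (Isg15) without the filter (2.13%). In ACreb3l2/AXBP1 against ACreb3l2 they were 3 without the filter (1.74%) and 2 with DESeq2 (0.231%). List genes called were, in ACreb3l2/AXBP1 against WT, 24 without the filter (10.9%), 1 in each of the 3 limma fits (5.71%, 5.78% and, unfiltered, 1.08%), 5 with only the compared groups in the fit (4.2%) and 0 to 19 leaving out 1 library. In ACreb3l2 against WT they were 18 without the filter (4.92%), 1, 1 and 0 in the limma fits (1.42%, 1.44% and 0.443%), 2 with only the compared groups (1.77%) and 0 to 8 leaving out 1 library, and in AXBP1 against WT 3 without the filter (2.13%).

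With the replicate number as a block, list genes called in ACreb3l2 against WT were 4 (2.06%), those in ACreb3l2/AXBP1 against WT were 9 (7.14%), and the members called stayed at 2 in ACreb3l2 and 0 in every other comparison. A block with the ACreb3l2/AXBP1 numbers crossed, chosen after seeing the data because of the negative correlation with WT, gave 0 members and 14 list genes in ACreb3l2/AXBP1 against WT (13.2%).

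Signs changed as follows, with the lowest and highest log2 change over leaving out 1 library. In ACreb3l2/AXBP1 against WT, library size alone gave 0.137 for Irf9 and 0.0245 for Usp18, and limma on log2(FPKM + 0.1), filtered or not, gave -0.000108 for Bst2. Leaving out 1 library gave -0.0919 to 0.334 for Ifit1, -0.234 to 0.493 for Ifit2, -0.123 to 0.0832 for Irf9, -0.321 to 0.0921 for Usp18 and -0.363 to 0.328 for Bst2. In ACreb3l2 against WT, library size alone gave 0.0131 for Isg15, and leaving out 1 library gave -0.762 to 0.428 for Isg15, -0.169 to 0.247 for Irf7, -0.0813 to 0.121 for Irf9 and -0.227 to 0.322 for Bst2. In AXBP1 against WT, library size alone gave 0.0102 for Irf9, and limma gave -0.0286 (log2(FPKM + 0.1), filtered or not) or -0.0297 (log2(FPKM + 1)) for Ifit2 and -0.0902 or -0.0704 for Stat2. Leaving out 1 library gave -0.290 to 0.132 for Ifit1, -0.217 to 0.507 for Ifit2, -0.197 to 0.0379 for Ifit3, -0.144 to 0.0581 for Irf9 and -0.0118 to 0.124 for Stat2. Over all genes the number called against WT ran from 218 to 3209 in ACreb3l2/AXBP1, 122 to 1455 in ACreb3l2 and 0 to 628 in AXBP1, beside 1566, 473 and 0 as reported.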
